A study of Mus musculus with 5 samples.

Results

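Transcripts of 8 genes of the tumour necrosis factor (TNF) pathway were followed through the cell types of the mouse heart, in control animals and in a genetic model of the myocarditis that immune checkpoint inhibitors can cause. The genes were taken by symbol from the 31053 genes in the count matrices. They are the ligands Tnf, Lta and Ltb, the receptors Tnfrsf1a and Tnfrsf1b, the feedback inhibitors Tnfaip3 and Nfkbia, and the cytokine gene Il6.

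Both groups are described as null for the checkpoint receptor gene Pdcd1 (Pdcd1-/-), which encodes PD-1. Control hearts were Ctla4+/+ Pdcd1-/- (4 mice, libraries called control replicates 1 and 2), and disease hearts were Ctla4+/- Pdcd1-/- (10 mice, libraries called disease replicates 3, 4 and 5). Digested hearts were pooled and live nucleated cells were sorted for 10x Genomics 5-prime single-cell sequencing. The libraries are therefore the replicates, the labels do not tie mice to libraries or give ages, and p-values measure only the spread between these libraries. The genotype labels of control replicate 2 and disease replicate 4 read Pdcd2-/- and that of disease replicate 5 reads Pdcd3-/-, while the series text gives Pdcd1-/- for every library. The groups were taken from the Ctla4 part of the label.

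TNF is made mainly by macrophages and lymphocytes and binds TNFR1, which most cells carry, and TNFR2, which is more restricted. Receptor binding activates the IkappaB kinase, which marks the inhibitor IkappaB-alpha for destruction and frees NF-kappaB to enter the nucleus. NF-kappaB then switches on inflammatory genes such as Il6 together with its own brakes, Nfkbia (IkappaB-alpha) and Tnfaip3 (the ubiquitin-editing enzyme A20).

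Promoters of 4 of these genes are shown because the ligand, both brakes and the cytokine gene carry the results that follow. Each is the 250 bases before the start of transcription in RefSeq (GRCm38.p6), 5′ to 3′ on the strand of the gene, with capitals marking matches to the 10-base NF-kappaB consensus on either strand.
Nfkbia, chr12:55492648-55492897, minus strand: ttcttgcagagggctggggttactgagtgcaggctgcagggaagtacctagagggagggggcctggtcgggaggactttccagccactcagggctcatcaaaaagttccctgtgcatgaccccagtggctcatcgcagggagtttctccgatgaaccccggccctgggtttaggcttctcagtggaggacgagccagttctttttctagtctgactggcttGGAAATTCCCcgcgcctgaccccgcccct
Tnfaip3, chr10:19015411-19015660, minus strand: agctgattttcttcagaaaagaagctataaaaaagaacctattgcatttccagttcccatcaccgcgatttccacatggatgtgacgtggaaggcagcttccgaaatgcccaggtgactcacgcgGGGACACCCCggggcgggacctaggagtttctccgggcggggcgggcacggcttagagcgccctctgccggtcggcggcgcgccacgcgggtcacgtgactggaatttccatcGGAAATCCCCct
Il6, chr5:30012864-30013113, plus strand: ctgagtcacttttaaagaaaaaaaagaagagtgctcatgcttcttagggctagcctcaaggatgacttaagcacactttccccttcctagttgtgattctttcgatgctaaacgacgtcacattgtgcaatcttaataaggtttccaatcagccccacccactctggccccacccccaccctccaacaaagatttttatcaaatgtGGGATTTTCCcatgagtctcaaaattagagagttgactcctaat
Tnf, chr17:35202008-35202257, minus strand: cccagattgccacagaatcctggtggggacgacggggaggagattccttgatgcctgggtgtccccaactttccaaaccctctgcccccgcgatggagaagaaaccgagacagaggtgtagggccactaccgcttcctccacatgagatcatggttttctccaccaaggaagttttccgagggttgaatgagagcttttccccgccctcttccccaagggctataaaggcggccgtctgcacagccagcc

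Nfkbia held a match 29 to 20 bases before its start. Il6 held one 44 to 35 bases before its start, and the first of 2 listed starts of Tnfaip3 held a pair, at 125 to 116 and at 12 to 3 bases. The lymphotoxin beta gene Ltb held one 87 to 78 bases before its start, and Tnf, Lta, Tnfrsf1a, Tnfrsf1b and the second Tnfaip3 start held none in this window. Of 32851 mouse promoters of the same length, 7.25% held a match. A match describes letters and is no evidence of binding. Ltb, Tnf and Lta lie side by side on chromosome 17, with 3060 bases between Ltb and Tnf and 1157 bases between Tnf and Lta.

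After filtering, 38312 of 47319 cell barcodes were kept, between 5588 and 9950 per library, with median depths between 3368 and 4668 unique molecular identifiers (UMIs) per cell. Barcode sequences found in more than 1 library numbered 781. Cells were placed in lineages by marker UMIs, which gated 91.6 to 94.7% of the cells of each library, and no cardiomyocyte lineage was defined. Among kept cells the T cell share was 6.48 and 1.70% in control, against 2.36, 24.1 and 7.96% in disease, so disease replicate 4 stands apart in its T cell share. In the T cell gate, Pdcd1 was read at 554 and 68.8 CPM (UMIs of the gene per 1000000 UMIs) in control and at 250, 1037 and 817 CPM in disease. Ctla4 was read there at 411 and 73.5 CPM in control and at 150, 633 and 532 CPM in disease. The labels do not say which part of Pdcd1 or Ctla4 is deleted, so these 5-prime reads do not check the genotypes. All levels that follow are CPM of the UMIs summed over a gate in 1 library, and values are given in the order control replicates 1 and 2, then disease replicates 3, 4 and 5.

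Tnf transcripts came from macrophages, at a level that did not differ detectably between the groups. Monocytes and macrophages held between 79.3 and 83.2% of all Tnf UMIs of a library. Their Tnf level was 703 and 941 CPM in control and 916, 911 and 892 CPM in disease, with all disease values inside the control range. The log2 fold change of disease over control was 0.25 ± 0.20 (SE; adjusted p = 0.526 in edgeR). With every cell cut to 1000 random UMIs (thinning), 45.3 and 51.1% of control and 53.5, 52.8 and 49.5% of disease macrophages had a Tnf UMI, and the groups overlapped. They did not overlap in resident macrophages, at 45.2 and 50.8% against 52.5, 54.4 and 52.6%, in endothelial cells, at 2.15 and 1.43% against 2.89, 4.01 and 3.41%, or in B cells, at 1.61 and 0.372% against 2.63, 4.03 and 2.96%. The exact two-sided permutation p was 0.1 in each of these, the smallest that 5 libraries allow, and 0.533 after adjustment. Without thinning the Tnf shares overlapped in each of these sets, in B cells at 7.09 and 4.36% against 5.23, 9.62 and 3.88%. Tnf levels overlapped in each of them too, in B cells at 31.8 and 18.1 CPM against 17.5, 48.0 and 16.9 CPM. Such shares were not computed for all genes. After thinning, the share in fibroblasts, which should make little TNF, lay between 0.215 and 1.46%.

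The neutrophil gate came next for Tnf, with 295 and 350 CPM in control and 447, 616 and 516 CPM in disease. The disease values were all higher, as for 17.3% of all genes that passed the filter there, on only 20 to 70 cells per library, and too few cells were present for a test. Macrophage markers in this gate were also higher in disease, at 443 and 433 CPM summed over 7 markers in control against 1418, 843 and 844 CPM. Fibroblast markers were lower there, at 443 and 452 CPM against 97.2, 117 and 93.7 CPM, and the neutrophil markers themselves were higher, at 12797 and 12635 CPM against 16108, 19692 and 16967 CPM. The part of this difference in cell content in the Tnf values was not tested. In T cells Tnf stood at 60.7 and 30.8 CPM in control and 33.6, 89.3 and 73.9 CPM in disease, and the groups overlapped. Endothelial cells had 35.7 and 22.4 CPM against 35.4, 60.4 and 46.1 CPM, a log2 fold change of 0.64 ± 0.29 (SE; adjusted p = 0.244 in edgeR) that did not pass the test. Macrophage markers summed to 113 and 49.8 CPM in control and 47.0, 136 and 72.9 CPM in disease in the T cell gate. In the endothelial gate they summed to 137 and 48.8 CPM against 82.8, 189 and 92.6 CPM. Both Tnf and these markers were highest in disease replicate 4 in both gates, and their part in the Tnf values was not tested. In order of mean level, macrophages and then neutrophils stood above all other lineages in 5 of 5 libraries without overlapping ranges, while the neighbours from T cells down to fibroblasts had overlapping ranges.

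The lymphotoxins were lymphocyte genes. Ltb encodes the subunit that anchors lymphotoxin to the membrane for signalling through the lymphotoxin beta receptor. In B cells Ltb stood at 266 and 286 CPM in control and 238, 368 and 341 CPM in disease, with overlapping groups. T cells had 206 and 187 CPM in control and 227, 316 and 255 CPM in disease, where every disease library was above both controls, as held for 11.4% of all genes tested there. The T cell log2 fold change was 0.42 ± 0.25 (SE; adjusted p = 0.506 in edgeR), and in B cells it was 0.28 ± 0.21 (SE; adjusted p = 0.479 in edgeR). The neutrophil gate also carried Ltb, at 121, 111, 155, 264 and 141 CPM. B cell markers in this gate summed to at most 22.0 CPM in any library, with 4 of 6 at 0 throughout. T cell markers there summed to 26.8 and 0 CPM in control and 0, 139 and 46.9 CPM in disease, highest in disease replicate 4 as Ltb was, and the part of either cell type was not tested. In macrophages, endothelial cells, mural cells and fibroblasts, Ltb was at most 8.52 CPM, and its highest value in macrophages, endothelial cells and fibroblasts was in disease replicate 4. T cell markers were highest in that library in the same gates, for example 94.1 CPM summed over 6 markers in fibroblasts against 1.46 to 25.03 CPM in the other libraries, and their part was not tested.

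Lta, which encodes the secreted lymphotoxin alpha, was rare. T cells held 18 and 0 Lta UMIs in control and 4, 76 and 35 in disease. That made 5.15 and 0 CPM against 6.72, 6.87 and 11.05 CPM, and 3 UMIs would have made 7.11 CPM in control replicate 2, so its 0 is not informative. The log2 fold change was 1.02 ± 0.64 (SE; adjusted p = 0.528 in edgeR). CD4 T cells had more Lta than CD8 T cells in 3 libraries, at 39.4 against 1.15 CPM in control replicate 1, and at 28.3 against 5.04 and 44.1 against 10.0 CPM in disease replicates 4 and 5. These rest on 10, 17 and 6 UMIs in CD4 cells and on 3, 47 and 27 in CD8 cells. Disease replicate 3 had 2 UMIs in each, too few to compare, and control replicate 2 had fewer than 20 CD4 cells.

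**Figure D1:**
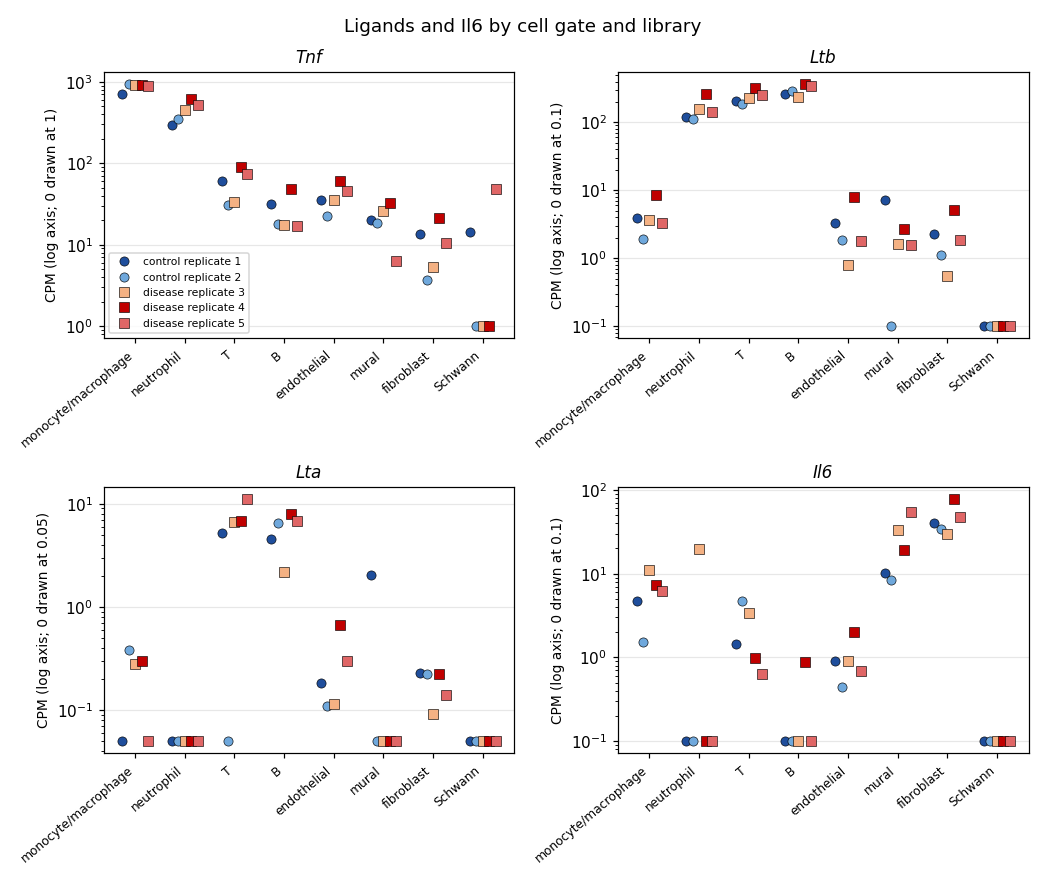
Level of Tnf, Ltb, Lta and Il6 (CPM of summed UMIs, logarithmic axes with 0 drawn at the bottom value) in 8 cell gates, with 1 point per library; circles are control and squares are disease libraries. Tnf peaks in the monocyte/macrophage gate at 703 to 941 CPM, Ltb in B and T cells, and Lta in T and B cells. By mean level Il6 peaks in fibroblasts, which are above mural cells in 3 of 5 libraries.

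The receptors differed in where they were read. Tnfrsf1a, which encodes TNFR1, was present in every lineage and lowest in B cells, where it stood between 4.37 and 15.1 CPM without overlap with any other lineage. Endothelial cells had 254 and 228 CPM in control and 243, 327 and 293 CPM in disease. Fibroblasts had 171 and 158 CPM in control and 179, 268 and 220 CPM in disease, and all disease libraries were above the controls, by the narrowest margin in disease replicate 3. Mural cells, the pericytes and smooth muscle of vessels, had 204 and 216 CPM against 254, 298 and 249 CPM, again without overlap. Of all tested genes, 25% had every disease library above both controls in fibroblasts and 16.5% in mural cells. The summed markers of each gate itself were also higher in disease. Fibroblast markers in fibroblasts were at 6294 and 6256 CPM against 7045, 8248 and 7447 CPM. Mural markers in mural cells were at 12193 and 12706 CPM against 13417, 15187 and 14684 CPM. Their part in the Tnfrsf1a values was not tested. The log2 fold changes were 0.39 ± 0.19 in fibroblasts (SE; adjusted p = 0.246 in edgeR) and 0.36 ± 0.18 in mural cells (SE; adjusted p = 0.304 in edgeR), and neither passed the test. After thinning, 16.3 and 14.5% of control and 17.5, 21.5 and 17.9% of disease fibroblasts had a Tnfrsf1a UMI. In mural cells these shares overlapped, at 22.4 and 24.5% against 17.6, 27.5 and 20.9%. The highest Tnfrsf1a level was in the neutrophil gate, at 408 to 704 CPM.

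Tnfrsf1b, which encodes TNFR2, had its highest levels in neutrophils, T cells and macrophages among the lineages with at least 20 cells in every library. Natural killer cells had 126 CPM in control replicate 2 and 91.8 CPM in disease replicate 4, on 8 and 17 UMIs, and too few cells elsewhere. T cells had 239 and 83.0 CPM in control and 101, 172 and 121 CPM in disease, so the control libraries bracketed all disease values. Macrophages had 79.7 and 70.9 CPM against 69.3, 71.7 and 57.8 CPM. The log2 fold changes of Tnfrsf1b were -0.33 ± 0.42 in T cells (SE; adjusted p = 0.770 in edgeR) and -0.09 ± 0.20 in macrophages (SE; adjusted p = 0.850 in edgeR). Fibroblasts, endothelial cells and mural cells had at most 23.3 CPM in any library.

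Nfkbia was lower in disease in every lineage that could be read, the only one of the 8 genes of which this held. Its level in fibroblasts was 768 and 607 CPM in control and 260, 150 and 142 CPM in disease. Endothelial cells had 718 and 553 CPM in control and 288, 150 and 169 CPM in disease. Macrophages had 1110 and 1666 CPM against 726, 226 and 295 CPM. In none of these gates did the groups overlap, and disease replicate 3 lay between the controls and the other two disease libraries.

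The same order held elsewhere. T cells had 417 and 669 CPM in control and 217, 56.8 and 70.4 CPM in disease, and B cells had 487 and 550 CPM against 173, 72.9 and 57.3 CPM. Mural cells had 1039 and 788 CPM against 460, 194 and 224 CPM, and the few neutrophils had 1194 and 1511 CPM against 777, 242 and 469 CPM. Over 8 lineages and 2 sub-gates (CD8 T cells and resident macrophages) with at least 20 cells in every library, disease was below control in 10 of 10 gates, with the ratio of the control mean to the disease mean between 2.73 and 6.37. Disease replicate 3 was above disease replicates 4 and 5 in 10 of 10. Groups apart in this direction were common among all genes: 21.5% of tested genes in all cells had all disease libraries below both controls. By gate this background was 23.5% in endothelial cells, 24.9% in fibroblasts, 23% in macrophages, 19.9% in T cells, 21.2% in mural cells, 25% in B cells, 22.3% in resident macrophages, 15.3% in neutrophils, 17.3% in Schwann cells and 18.7% in CD8 T cells.

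In the tests, Nfkbia fell in 5 of 8 fits, each of which had at least 50 cells in every library. The log2 fold change was -1.95 ± 0.31 in fibroblasts (SE; adjusted p = 0.0132 in edgeR), where 12.2% of all genes were called lower, and -1.70 ± 0.32 in endothelial cells (SE; adjusted p = 0.0248 in edgeR), where 11.3% were. It was -1.61 ± 0.34 in mural cells (SE; adjusted p = 0.0191 in edgeR; background 7.16%) and -2.29 ± 0.44 in B cells (SE; adjusted p = 0.0239 in edgeR; background 8.17%). In resident macrophages, the macrophages with Lyve1, Timd4, Folr2 or Cd163 UMIs, it was -1.69 ± 0.38 (SE; adjusted p = 0.0425 in edgeR; background 7.14%). The call was missed in all cells (-1.77 ± 0.36 SE, edgeR adjusted p = 0.0584; background 6.4%), in all macrophages (-1.67 ± 0.45 SE, edgeR adjusted p = 0.0898; background 6.55%) and in T cells (-2.23 ± 0.66 SE, edgeR adjusted p = 0.119; background 5.49%).

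The calls were lost when some libraries were left out. With 1 control library left, the spread is estimated from the disease libraries, and the lone control is assumed to vary like them. In endothelial cells the edgeR adjusted p was 0.121 without control replicate 1, 0.0906 without control replicate 2 and 0.124 without disease replicate 5, and in fibroblasts it was 0.0891, 0.0646 and 0.062 without the same libraries, while the log2 fold change stayed between -2.13 and -1.51. In B cells the values were 0.0963, 0.205 and 0.0696, and in resident macrophages 0.144, 0.286 and 0.188, without the same libraries. In mural cells the call was lost without control replicate 1 (edgeR adjusted p = 0.118) and without disease replicate 5 (0.119). Without disease replicate 3 the call was gained in all cells (-2.21, edgeR adjusted p = 0.0187), macrophages (-2.29, 0.00572) and T cells (-3.14, 0.0288).

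At the level of single cells thinned to 1000 UMIs, fewer disease cells had an Nfkbia UMI. The share was 46.5 and 38.0% of control fibroblasts and 20.6, 13.5 and 12.4% of disease fibroblasts. Among T cells it was 27.0 and 40.0% in control and 16.1, 5.39 and 6.87% in disease. Shares did not overlap in 8 of 8 sets of cells, but the exact two-sided permutation test over 5 libraries cannot go below 0.1, and the smallest value adjusted over 64 tests was 0.533.

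Genes rich in G and C at their 5-prime end were lower in disease generally, with a Spearman correlation across genes between -0.38 and -0.29 in the 8 fits. The first 300 bases of Nfkbia transcripts have 62% GC. Genes within 2.5 points of that had median log2 fold changes between -0.19 and -0.08, and 4.80 to 7.30% of them were at or below Nfkbia. With the GC trend removed, Nfkbia was -1.59 in endothelial cells and -1.83 in fibroblasts, and both calls stayed.

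**Figure D2:**
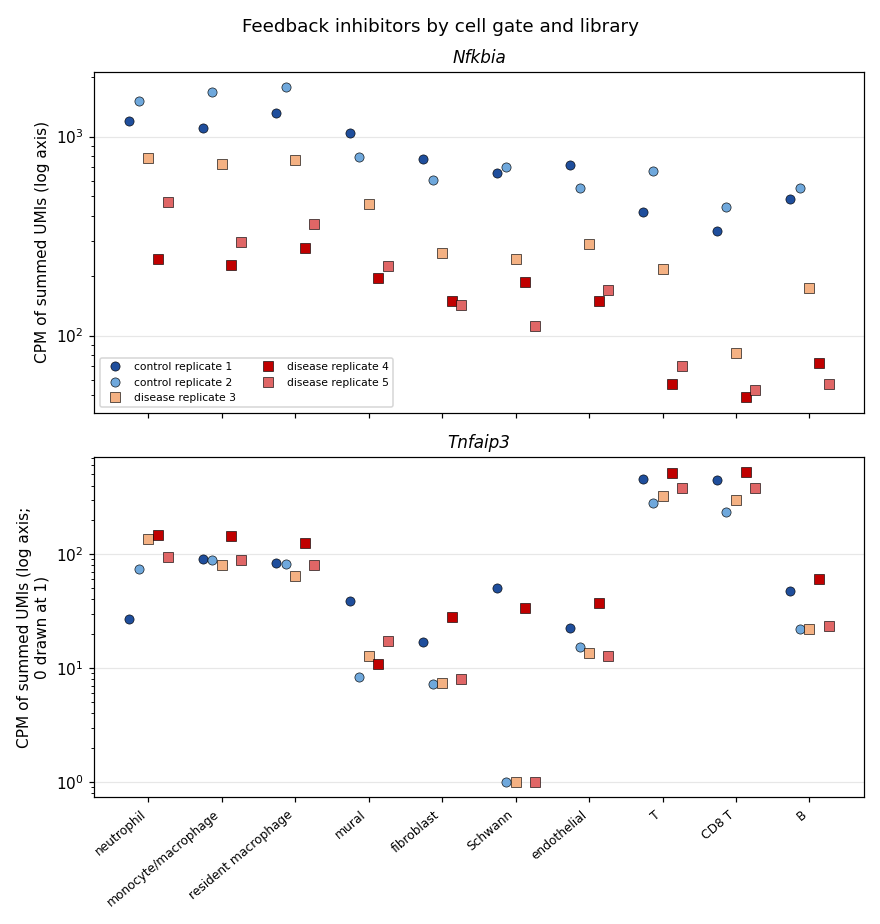
Level of Nfkbia and Tnfaip3 (CPM of summed UMIs, logarithmic axes) in the 10 gates with at least 20 cells in every library, with 1 point per library; circles are control and squares are disease. Disease libraries lie below controls for Nfkbia in 10 of 10 gates, with disease replicate 3 highest among them, while for Tnfaip3 the groups overlap in 9 of 10.

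Tnfaip3, the other brake, was called in no fit. T cells had the highest level, with 455 and 282 CPM in control and 324, 516 and 381 CPM in disease. Macrophages had 90.3 and 88.6 CPM against 79.6, 143 and 89.4 CPM. The groups overlapped in both, and the log2 fold changes were 0.13 ± 0.30 in T cells (SE; adjusted p = 0.890 in edgeR) and 0.34 ± 0.33 in macrophages (SE; adjusted p = 0.599 in edgeR). Fibroblasts had 16.8 and 7.28 CPM against 7.46, 28.1 and 8.08 CPM, with disease replicate 4 highest. Without disease replicate 4 the Tnfaip3 change turned negative in fibroblasts, at -0.72 (edgeR adjusted p = 0.315).

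The 2 brakes were also set against each other. In T cells there were 109 and 42.2 Tnfaip3 UMIs per 100 Nfkbia UMIs in control and 150, 908 and 541 in disease. In macrophages there were 8.14 and 5.32 in control and 10.96, 63.1 and 30.3 in disease. The ratio carries the lower Nfkbia level of the disease libraries in its denominator, so it adds no separate evidence, and no test was made of it.

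Within macrophages, cells with a Tnf UMI had more Nfkbia than cells without one, after thinning to equal depth, in 5 of 5 libraries. The values were 1365 against 1123 and 1679 against 1362 CPM in control. In disease replicates 3, 4 and 5 they were 791 against 733, 269 against 264 and 403 against 356. The gap between the groups was wider than the gap between cells with and without Tnf. In T cells the Nfkbia level with and without a Tnf UMI was 407 against 395 CPM in control replicate 1, 55.6 against 59.9 in disease replicate 4 and 66.7 against 84.8 in disease replicate 5, the libraries with enough such cells. The values with a Tnf UMI rest on 11, 12 and 3 Nfkbia UMIs, too few to read an order from. These are descriptions of cells in the same libraries, with no test.

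Il6, which encodes a cytokine induced by TNF and interleukin-1, was a fibroblast transcript. Fibroblasts held 75.9 to 92.7% of the Il6 UMIs of each library. Their level was 40.0 and 34.0 CPM in control and 30.1, 77.3 and 47.2 CPM in disease, with disease replicate 3 below both controls. The log2 fold change was 0.43 ± 0.39 (SE; adjusted p = 0.519 in edgeR). A few cells carried the transcript, between 97 and 330 fibroblasts per library, and at 1000 UMIs the share with Il6 was 2.83 and 2.08% in control and 1.96, 4.77 and 3.47% in disease. The Il6 level of fibroblasts was above that of mural cells in 3 of 5 libraries. Mural cells were higher in disease replicates 3 and 5, at 33.5 and 54.9 CPM.

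In mural cells Il6 was called higher in disease, the only rise of a member in any fit, where 0.211% of all genes were called higher. The level was 10.1 and 8.31 CPM in control and 33.5, 19.1 and 54.9 CPM in disease, a log2 fold change of 1.99 ± 0.48 (SE; adjusted p = 0.0364 in edgeR). These values rest on 10 and 5 UMIs in control and 21, 7 and 35 UMIs in disease, and 25 of the 35 UMIs of disease replicate 5 came from 1 cell. When the cell with most Il6 UMIs was left out of each library, Il6 no longer passed the filter on low counts and had no test. The call was lost without control replicate 1 (edgeR adjusted p = 0.160) or control replicate 2 (0.169), each leaving a lone control as above, without disease replicate 3 (0.0750) or disease replicate 5 (0.172), with DESeq2 (adjusted p = 0.0620) and with the GC trend removed (edgeR adjusted p = 0.0593). The share of mural cells with an Il6 UMI overlapped between the groups after thinning, at 1.28 and 1.02% against 2.20, 2.90 and 0.909%. Without thinning it did not, at 3.13 and 1.96% against 9.68, 6.67 and 5.26%, out of 160 and 102 cells in control and 93, 75 and 114 in disease. Fibroblast markers in the mural gate overlapped too, at 386 and 234 CPM summed over 6 markers in control and 275, 328 and 414 CPM in disease. Dendritic cell markers there were higher in disease, at 16.2 and 18.3 CPM against 31.9, 35.5 and 20.4 CPM, and so were the mural markers themselves. Cardiomyocyte markers were lower, at 460 and 321 CPM against 217, 317 and 132 CPM, and markers of the other lineages overlapped. The part of these differences in the Il6 values was not tested.

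Macrophages had 4.68 and 1.54 CPM of Il6 in control and 11.1, 7.25 and 6.13 CPM in disease. The groups did not overlap, as for 13.6% of all tested genes in this direction. The log2 fold change of 1.25 ± 0.47 (SE; adjusted p = 0.224 in edgeR) did not pass the test. Over 15 alternative settings this estimate ranged from 0.77 to 2.52. Of the 40 UMIs of disease replicate 3, 13 came from 1 cell. Markers of other cells were also higher in disease in this gate. Dendritic cell markers summed to 21.9 and 18.5 CPM in control and 28.1, 80.3 and 49.8 CPM in disease, and neutrophil markers to 41.4 and 33.1 CPM against 68.5, 85.6 and 57.3 CPM. Dendritic cells, read in 3 libraries, had 18.2 CPM of Il6 in control replicate 1 and 8.14 and 21.6 CPM in disease replicates 4 and 5, on 6 to 10 UMIs each. The part of these cells in the macrophage value was not tested. Il6 was at most 2.00 CPM in endothelial cells and was not read in Schwann cells.

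**Figure D3:**
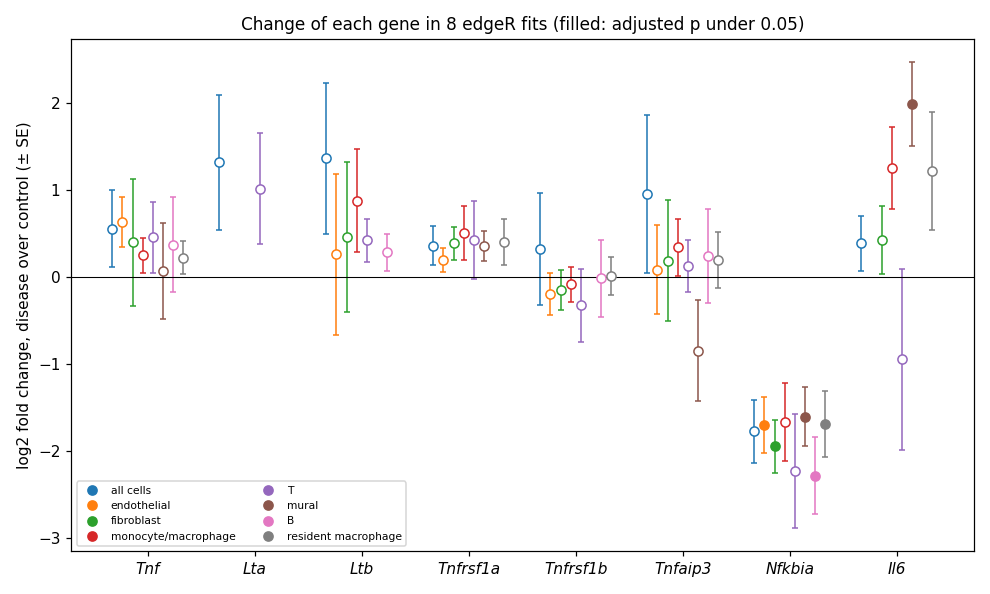
Log2 fold change of disease over control for each of the 8 genes (edgeR, bars are SE) in 8 fits, distinguished by colour; filled points have an adjusted p under 0.05. Nfkbia lies between -2.29 and -1.61 in all 8, and Il6 in mural cells is the only filled point above 0.

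The change of a gene was compared between lineages with a lineage by group term for 6 pairs of lineages. None of 45 tests on the 8 genes was called by edgeR, 1 had an unadjusted p under 0.05, and the smallest adjusted p was 0.214. Among all genes, 0.197% were called for endothelial cells against fibroblasts, 0.0145% against macrophages and 0.00746% against T cells. For fibroblasts the background was 0.0488% against macrophages and 0.0141% against T cells, and for macrophages against T cells it was 0.00848%. The Nfkbia change in endothelial cells minus that in fibroblasts was 0.08 ± 0.12 (SE; adjusted p = 0.782 in edgeR). The change in endothelial cells minus that in T cells was 0.88 ± 0.44 (SE; adjusted p = 0.931 in edgeR), so no difference between them was shown.

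Across 31 sums of UMIs (7 lineages in up to 5 libraries), the gene whose pattern was most like that of Tnf among 8760 genes was Fcer1g, an Fc receptor subunit of myeloid cells (Pearson r = 0.96 on log2 of CPM plus 1). Ltb was most like Tbc1d10c (r = 0.98), and Tnfaip3 most like Batf, a transcription factor of activated lymphocytes (r = 0.94). Nfkbia was most like Mrpl57 (r = 0.90), and Il6 most like Rem1 (r = 0.91). Lta was most like Ptprcap (r = 0.89), Tnfrsf1a most like Znhit1 (r = 0.92) and Tnfrsf1b most like Atp8b4 (r = 0.93). The points share libraries and lineages, so these are descriptions.

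Other genes of the pathway were followed in 6 lists of 68 genes in all. In endothelial cells 10 of 63 tested pathway genes fell and 2 rose (0.386% of all genes rose there), with a median log2 fold change of 0.04 beside 0.01 for all tested genes. In fibroblasts 12 of 65 fell and none rose, with medians of -0.02 and 0.00. In macrophages 7 of 63 fell and none rose, with medians of 0.15 and 0.01, and in T cells 3 of 61 fell and none rose, with medians of -0.09 and 0.03. The share that fell was 15.9% in endothelial cells, 18.5% in fibroblasts, 11.1% in macrophages and 4.92% in T cells, beside the 11.3, 12.2, 6.55 and 5.49% of all genes given above. Several of the genes that fell are rich in GC at the 5-prime end, among them Relb (73.7%), Tnip2 (66.3%), Ltbr (64.8%), Socs3 (63.8%), Jak1 (63.8%) and Rbck1 (63.2%), while Traf5 (54.0%) and Sharpin (56.0%) are less so. Windows of 2.5 points to either side were centred on the GC of the members. Around 65.3%, that of Lta, 22.9% of all genes were called lower in endothelial cells, 24.3% in fibroblasts, 14.5% in macrophages and 11.8% in T cells. Around 62%, that of Nfkbia, the shares were 14.0, 15.3, 8.68 and 6.76% in the same order. Around 56.3%, that of Tnf, they were 8.16, 8.82, 4.43 and 3.80%. The part of base composition in these list counts was not tested.

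Among the NF-kappaB subunits and their kinase, only Relb, the partner of p52 in the alternative pathway, was called, and it fell in 7 of 8 fits, the exception being mural cells. In fibroblasts it was at 35.2 and 35.3 CPM in control and 13.5, 17.9 and 18.2 CPM in disease (log2 fold change -1.13 ± 0.16 SE, edgeR adjusted p = 0.00845). Ltbr, the receptor that binds Ltb and drives that pathway, fell in the 6 fits in which it was tested, and was too low for a test in T and B cells. Its fibroblast level was 62.9 and 60.9 CPM against 17.5, 19.4 and 18.6 CPM (-1.78 ± 0.10 SE, edgeR adjusted p = 0.00057).

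In the receptor complex list, Rbck1 and Sharpin, subunits of the linear ubiquitin ligase, fell in 6 and 5 fits. Rbck1 in T cells was at 82.4 and 75.9 CPM in control and 15.1, 19.6 and 21.8 CPM in disease (-2.07 ± 0.25 SE, edgeR adjusted p = 0.00831). Traf5, an adaptor of the receptors, fell in 4 fits. Among the other feedback inhibitors, the A20-binding protein gene Tnip2 fell in 5 fits, with a macrophage level of 66.4 and 80.5 CPM against 35.3, 17.3 and 25.7 CPM (-1.42 ± 0.25 SE, edgeR adjusted p = 0.0227). Nfkbid fell in 3 fits (B cells, macrophages and resident macrophages), with log2 fold changes between -1.42 and -0.69. Nfkbib fell in mural cells only (-1.63), and Nfkbiz in endothelial cells only (-0.90). Itch, a ubiquitin ligase, rose in endothelial cells (0.42 ± 0.09 SE, edgeR adjusted p = 0.0407).

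Of the TNF-induced targets, Sod2, the mitochondrial superoxide dismutase, fell in 4 fits and Csf1, the macrophage growth factor, in 3, and none rose. The median of this list was nevertheless above that of all tested genes in macrophages, at 0.49 beside 0.01, where 9 of 11 tested genes had positive values. The macrophage log2 fold changes of Vcam1, an adhesion molecule (2.02 ± 0.63 SE, edgeR adjusted p = 0.138), and Il1b, which encodes interleukin-1 beta (0.96 ± 0.31 SE, edgeR adjusted p = 0.161), did not pass the test. The list's median was 0.53 in resident macrophages, 0.46 in all cells, 0.20 in endothelial cells, 0.16 in fibroblasts, 0.18 in B cells, 0.02 in T cells and -0.13 in mural cells. Of the interleukin-6 list, Socs3, its feedback inhibitor, fell in 5 fits and the kinase Jak1 in 4. Socs3 in fibroblasts was at 235 and 220 CPM in control and 106, 87.2 and 108 CPM in disease (-1.22 ± 0.14 SE, edgeR adjusted p = 0.00446). Timp3, which inhibits the protease that sheds TNF, rose in endothelial cells from 838 and 906 CPM to 1320, 1380 and 1356 CPM (0.58 ± 0.09 SE, edgeR adjusted p = 0.0111) and in mural cells (0.67 ± 0.14 SE, edgeR adjusted p = 0.0163). Timp3 and Itch, the only pathway genes that rose in any fit, Csf1, Vcam1, Il1b, Nfkbid, Nfkbib and Nfkbiz were named after their values were seen.

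Of 12 genes that tissue digestion can induce, 1 to 3 fell in each fit and none rose. The count was 1 in all cells and in T cells, where 6.4 and 5.49% of all genes fell, and 3 in endothelial cells and in fibroblasts, where 11.3 and 12.2% did. It was 2 in macrophages, resident macrophages, mural cells and B cells, beside 6.55, 7.14, 7.16 and 8.17% of all genes. Atf3 fell in 8 of 8 fits, Dusp1 in 5, Egr1 in 2 and Hspa1a in 1. Atf3 in fibroblasts was at 831 and 761 CPM in control and 157, 165 and 166 CPM in disease (-2.34 ± 0.11 SE, edgeR adjusted p = 0.000407). In fibroblasts 9 of 12 were not called, from Junb (-1.13) and Hspa1a (-1.11) to Fos (0.016). The list's median log2 fold change was negative in 8 of 8 fits, between -0.49 in macrophages and -0.10 in mural cells, beside 0.01 and 0.02 for all tested genes there. Of the 12 genes, 0 had positive values in macrophages and in resident macrophages, 2 in all cells and in fibroblasts, 3 in T and in B cells, and 6 in endothelial and in mural cells. The list's part in the Nfkbia difference was not tested.

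**Figure D4:**
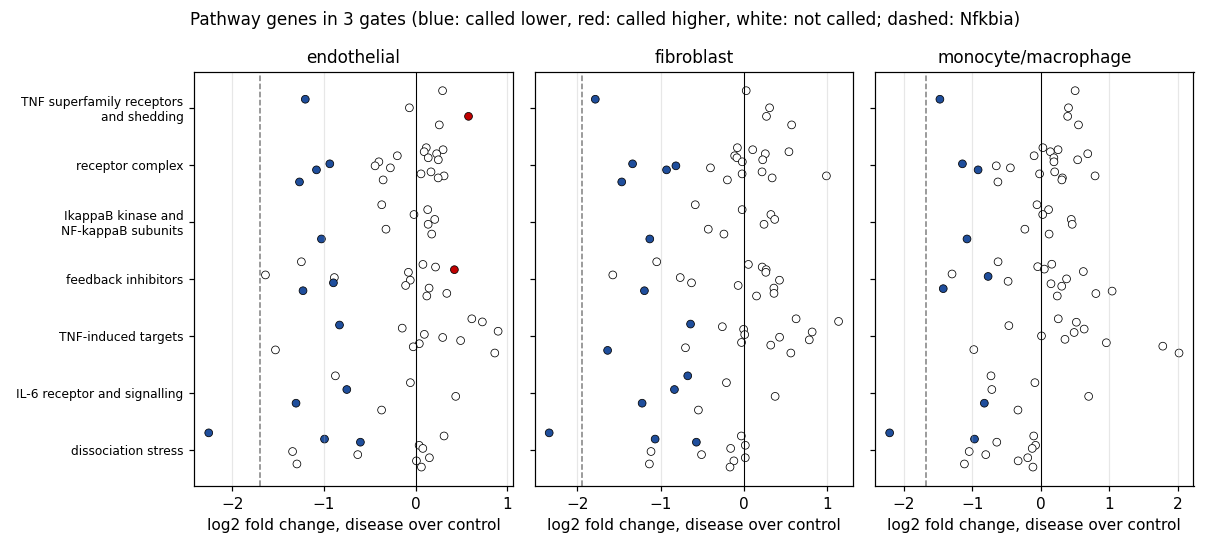
Log2 fold change of disease over control (horizontal axis) for each tested gene of 7 lists (rows) in endothelial cells, fibroblasts and monocytes/macrophages; blue points were called lower, red points higher, and the dashed line marks Nfkbia. Most genes lie near 0, and the leftmost blue point in each panel is Atf3.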

How the data were processed

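Hearts were profiled with 10x Genomics 5-prime libraries. The authors deposited unnormalized UMI counts for each gene in each cell; per the file headers they come from Cell Ranger 3.1.0. The submitters' processing notes also name Cell Ranger 3 and Seurat 3 and the builds GRCh38 and mm10, with no role. The rule for calling cells is not given in the sources used here. Cells with at least 500 UMIs, 200 genes and at most 10% mitochondrial UMIs were kept, and doublets were not called. A lineage needed at least 3 UMIs over at least 2 of its markers, with the next lineage at no more than 50% of that, which also leaves out mixed cells. Sums of counts per library and gate entered edgeR 4.0.16 under R 4.3.3 (TMM, filterByExpr, quasi-likelihood F test, no covariate), with Benjamini-Hochberg adjustment over all tested genes and a threshold of 0.05, and SE as the fold change over the root of F. Shares of cells with a UMI used cells thinned to 1000 UMIs. Alternatives were DESeq2 1.42.0, RLE scaling, no count filter, each library left out, other mitochondrial limits, equal cell numbers, other gates, a GC correction and removal of the cells with most UMIs. GC content and gene positions came from GENCODE M21. All 8 members could be named, with at most 8 called list genes per fit. In the text the first gene of each like pattern is given. The members and lists were chosen with earlier results of these data known.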

Additional observations from a re-analysis of the deposited data

How the results depend on the processing

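No paired analysis was made because the labels give no batch and link no library of one group to a library of the other. Alternatives for the mural, B cell and resident macrophage fits were chosen after seeing the data. Nfkbia kept its negative direction in all 98 alternative fits. The number of members called in all cells (0 as reported) was 1 with DESeq2, with every gene kept and without the 2% of cells with most UMIs, and 0 to 1 with 1 library left out. In macrophages and in T cells (0 as reported) it was 1 with DESeq2 and with every gene kept, and 0 to 1 with 1 library left out. In endothelial cells, fibroblasts, B cells and resident macrophages (1 as reported) it ranged from 0 to 1 with 1 library left out. In mural cells (2 as reported) it was 1 with DESeq2, with the GC trend removed and without the cell with most Il6 UMIs, and 0 to 2 with 1 library left out. Of 64 comparisons of shares of cells with a UMI, groups were apart in 20 at 1000 UMIs and in 12 with no thinning. Such shares were not computed for all genes, and of all tested genes 31.3 to 49.9% were apart in level in the same sets of cells. The other members were called under no setting apart from Il6 in mural cells, and 42 of 647 alternative fold changes had the opposite sign, none with an adjusted p under 0.05. With 1 library left out, the log2 fold changes that crossed 0 ranged as follows. Tnfrsf1b ranged from -0.41 to 1.03 in all cells, -0.48 to 0.14 in endothelial cells, -0.38 to 0.17 in fibroblasts, -0.27 to 0.067 in macrophages, -0.83 to 0.60 in T cells, -0.35 to 0.39 in B cells, -0.20 to 0.26 in resident macrophages. Tnfaip3 ranged from -0.20 to 1.77 in all cells, -0.57 to 0.39 in endothelial cells, -0.72 to 0.98 in fibroblasts, -0.064 to 0.52 in macrophages, -0.13 to 0.47 in T cells, -1.46 to 0.76 in mural cells, -0.42 to 0.86 in B cells, -0.21 to 0.39 in resident macrophages. Ltb ranged from -1.04 to 0.73 in endothelial cells, -0.57 to 1.14 in fibroblasts. Tnf ranged from -0.23 to 1.72 in fibroblasts, -0.28 to 0.56 in mural cells, -0.041 to 0.79 in B cells. With DESeq2, Tnfrsf1b was 0.041 in B cells. With the GC trend removed, Tnfaip3 was -0.092 in endothelial cells, Tnfaip3 was -0.14 in T cells, Tnf was -0.022 in mural cells, Tnfrsf1b was 0.0195 in B cells. At a 5% mitochondrial limit, Tnfrsf1b was 0.00682 in macrophages. With every gene kept, Tnfrsf1b was 0.012 in B cells. With the stricter gate, Ltb was -0.37 in endothelial cells, Tnfaip3 was -0.063 in endothelial cells. The cause was not tested. Depth limits Lta, with at most 104 UMIs in a library, and the 5 libraries limit every call.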
